A study of Homo sapiens with 6 samples.

Results

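Integrin and laminin subunit genes were examined in HCC827 cells after inhibition of EGFR. The members were taken by symbol, as every row of the deposited table named as an integrin α subunit (ITGA followed by digits or letters), an integrin β subunit (ITGB1 to ITGB8) or a laminin chain (LAMA, LAMB or LAMC followed by 1 digit), which gave 38 of 28395 genes, namely 18 α, 8 β and 12 laminin genes. HCC827 is an established human lung adenocarcinoma line whose growth depends on a mutant EGFR, and erlotinib inhibits the kinase of that receptor. RNA was sequenced from 3 libraries of cells given the vehicle DMSO and 3 libraries of cells given 1 μM erlotinib, all for 24 h, with no other genotype or agent in the design. A single cell line in 1 culture medium limits what these groups model, and the labels do not say whether the replicates were separate cultures, so the p-values measure the spread between these libraries, which may be technical. The DMSO libraries held 20858083, 24641819 and 21172884 reads on genes, and the erlotinib libraries 21944007, 20760204 and 21678395.

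Integrins are heterodimers of an α and a β chain in the plasma membrane that bind the extracellular matrix outside the cell and the cytoskeleton inside it. Their ligand is set by the pairing: ITGB1 pairs with many α chains, ITGB4 with ITGA6 alone, and ITGAV with several β chains, some of which release TGF-β from its latent complex. Laminins are trimers of an α, a β and a γ chain and form the network of the basement membrane on which epithelial cells rest. LAMA3 and LAMB3 are chains of the anchoring laminin of lung, skin and other epithelia, which is bound by integrins that carry ITGA3 or ITGA6.

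All values are signal, which here means reads divided by 1 size factor per library. Of the 38 genes, 26 had a mean signal of at least 10 over the 6 libraries and were tested with limma on log2(signal + 1), in a fit of all 14215 genes above that limit. With erlotinib, 11 of the 26 were lower and 11 higher past the threshold of 0.05 on limma p-values adjusted over all genes tested (Benjamini-Hochberg), and ITGA10, ITGB3, LAMA3 and LAMC1 were neither. The background was high in this experiment. Over all genes tested 35.4% were lower and 35.3% higher, so that 70.7% were called in either direction. The count of 22 called integrin and laminin genes is therefore to be read against a genome in which most tested genes moved. At least 1 log2 unit of change was seen in 5 members that fell (all genes, 10.8%) and 6 that rose (all genes, 17.0%). Among those that rose, ITGB7 reached the mean signal of 10 only through its erlotinib libraries (mean 6.18 in DMSO and 18.5 with erlotinib). In 11 members every erlotinib library lay below every DMSO library (all genes, 36.9%) and in 11 above (all genes, 36.7%), 22 in all (all genes, 73.6%). The median log2 fold change of the 26 members was 0.03, beside 0.02 for all genes, and the median of its absolute size was 0.74, beside 0.59. When the libraries were scaled to their total count in place of the size factors, the median of all genes moved to 0.19, and log2 changes smaller than that shift depend on the scaling.

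**Figure D1:**
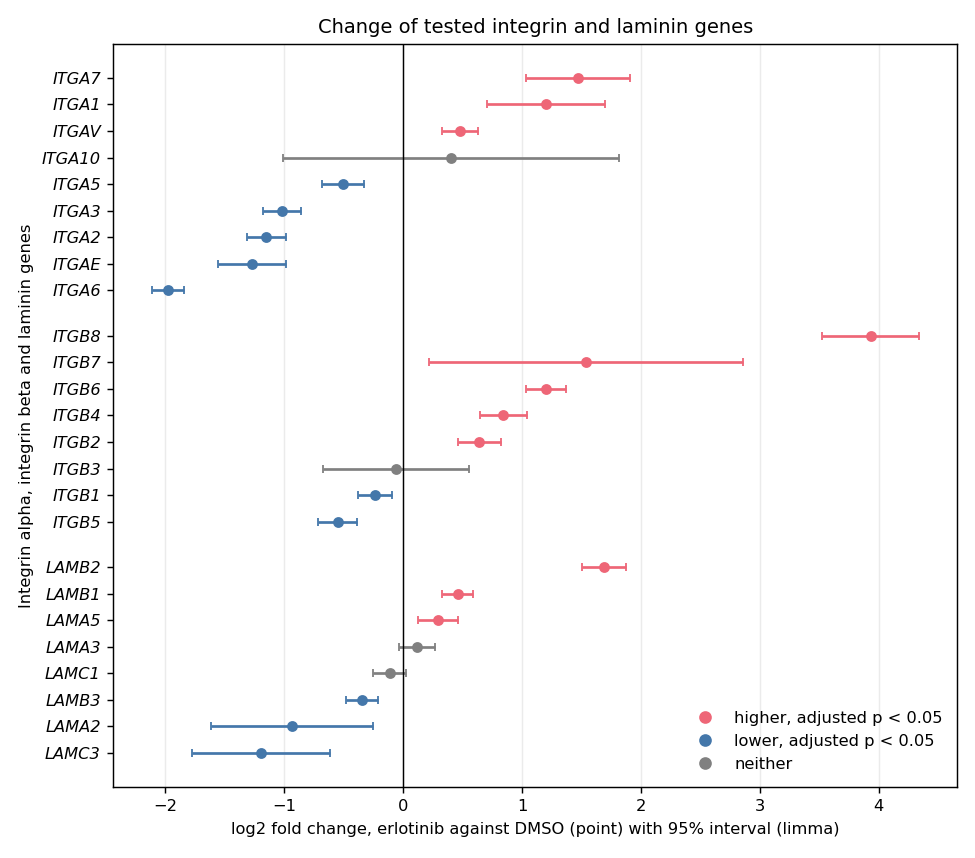
The log2 fold change of 25 tested integrin α, integrin β and laminin genes (point) with its 95% interval from limma (bar), in 3 blocks. ITGA6 lies lowest at -1.98 and ITGB8 highest at 3.93, and the grey genes did not pass the threshold.

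The 3 subunits of laminin-binding integrins did not move together. ITGA6 and ITGA3 fell, and ITGA7 rose from a far lower level. ITGA6, on chromosome 2 (172427336 to 172506459, plus strand, GRCh38), encodes the chain of the hemidesmosomal integrin. Its signal was 9483, 9350 and 8787 in the DMSO libraries and 2251, 2403 and 2352 in the erlotinib libraries. The groups were far apart, with a mean 3.94-fold higher in DMSO, and ITGA6 had the smallest adjusted p-value of the 26 members (log2 fold change -1.98, SE 0.06, limma adjusted p = 3.94e-16). ITGA3, on chromosome 17 (50056110 to 50090481), encodes the chain that pairs with ITGB1 to bind laminin at the base of epithelial cells. ITGA3 gave 20970, 16547 and 19741 in DMSO and 9190, 9395 and 9540 with erlotinib. The lowest DMSO library still lay above the highest erlotinib library (log2 fold change -1.02, SE 0.07, limma adjusted p = 1.36e-10). ITGA7, known from muscle, was read at 56.7, 45.5 and 59.9 in DMSO and at 140, 146 and 168 with erlotinib. Its groups did not overlap (log2 fold change 1.47, SE 0.21, limma adjusted p = 2.61e-06). BLOC1S1, with 119 exonic bases in common with ITGA7 on the opposite strand, went from 245, 261 and 264 to 293, 287 and 288. Per kb of transcript, ITGA3, ITGA6 and ITGA7 summed to 5500 ± 468 in DMSO and 2356 ± 49.4 with erlotinib (SD, n = 3), a change of -57.2%, and of -51.5% with total-count scaling.

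Of the 4 collagen-binding subunits, ITGA2 fell, ITGA1 rose and ITGA10 did not pass the test. ITGA2, on chromosome 5 (52989352 to 53094779), pairs with ITGB1 into a collagen receptor of epithelia and platelets. Its signal was 4276, 5139 and 4166 in DMSO and 2016, 1926 and 2156 with erlotinib, without overlap (log2 fold change -1.15, SE 0.08, limma adjusted p = 6.03e-11). Its neighbour ITGA1, the collagen receptor chain of stromal and smooth muscle cells, was at 51.0, 35.3 and 50.3 in DMSO and 104, 102 and 108 with erlotinib. ITGA1 thus rose (log2 fold change 1.20, SE 0.24, limma adjusted p = 0.000143) while remaining far below ITGA2. PELO, a gene inside ITGA1, shares 499 exonic bases with it on the same strand, and its signal was 1781, 1760 and 1752 in DMSO and 1285, 1335 and 1302 with erlotinib, opposite in direction to ITGA1. ITGA10 had a log2 fold change of 0.40 (95% interval -1.01 to 1.82) at mean signals of 11 ± 7.58 and 12.5 ± 5.81 (SD, n = 3), and ITGA11 never exceeded 4 reads in a library.

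The subunits that recognise the RGD sequence of fibronectin and other ligands were split. ITGA5, the fibronectin receptor chain, averaged 1170 ± 39.8 in DMSO and 823 ± 39.5 with erlotinib (SD, n = 3), and fell (log2 fold change -0.51, SE 0.08, limma adjusted p = 1.76e-05, and -0.33 with total-count scaling). ITGAV, on chromosome 2 (186590056 to 186680901), encodes the αv chain. Its signal was 5233, 6379 and 5355 in DMSO and 7744, 7924 and 7862 with erlotinib. All erlotinib libraries were above all DMSO libraries, by 1.39-fold in the means (log2 fold change 0.48, SE 0.07, limma adjusted p = 5.9e-06). Among the α subunits known from leukocytes, ITGAE was the single one above the filter. ITGAE was at 362, 481 and 418 in DMSO and 168, 165 and 184 with erlotinib (log2 fold change -1.27, SE 0.14, limma adjusted p = 5.77e-08). HASPIN, a mitotic kinase gene inside ITGAE on the opposite strand, shares 427 exonic bases with it and went from 1807, 1703 and 1765 to 224, 294 and 276. The strand setting of the read counting is not given in the sources used here, so reads of the shared bases cannot be assigned, and their part in the fall of ITGAE was not tested.

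**Figure D2:**
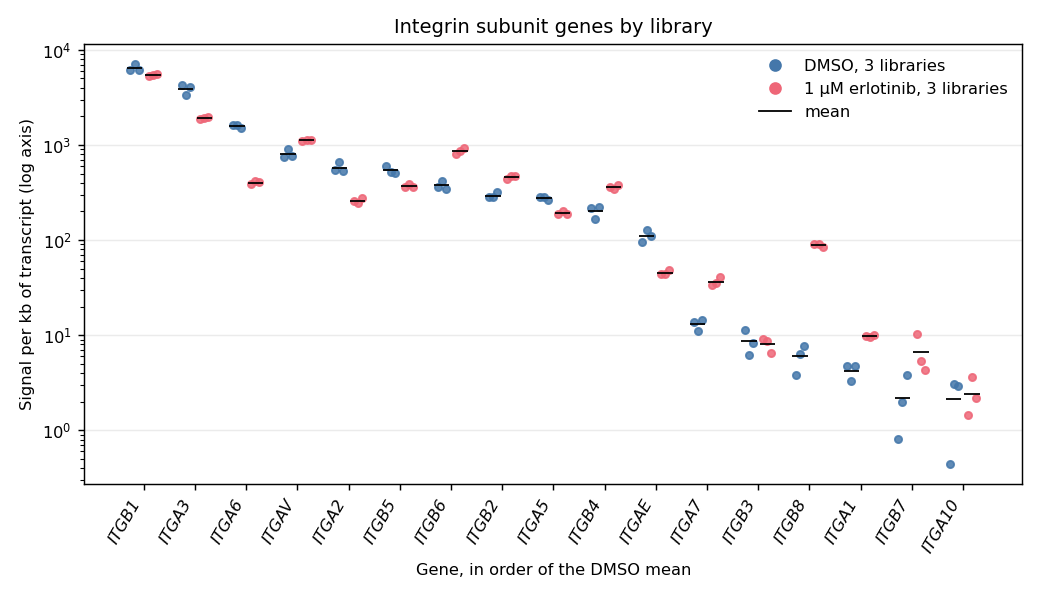
Signal per kb of transcript (log axis) of the 17 tested integrin genes in each of the 3 DMSO and 3 erlotinib libraries (points) with the group means (lines), in order of the DMSO mean. ITGB1 is highest in both groups, and ITGB8 shows the widest gap between the groups.

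Of the 8 β subunits, 5 were higher, beside 35.3% of all genes, ITGB1 and ITGB5 were lower and ITGB3 was neither. The 5 include ITGB7, whose call rests on few reads. It reached the filter of 10 only through the erlotinib libraries (mean signal 6.18 in DMSO and 18.5 with erlotinib), so its place among the 5 depends on its rise. ITGB8 and ITGB6 are the αv partners best known for activating latent TGF-β. ITGB8, on chromosome 7 (20329766 to 20415754), was low in DMSO at 34.0, 57.6 and 69.6, and stood at 819, 818 and 764 with erlotinib. The erlotinib mean was 14.9-fold higher (log2 fold change 3.93, SE 0.20, limma adjusted p = 2.53e-13). The antisense gene ITGB8-AS1 shares 132 exonic bases with ITGB8, and its own signal went from 2.27, 0.929 and 2.14 to 72.9, 77.2 and 61.8. ITGB6, the epithelial αv partner on chromosome 2 (160099671 to 160200272, minus strand), was at 1690, 1937 and 1614 in DMSO and 3760, 3989 and 4285 with erlotinib. Every erlotinib library was well above the DMSO libraries (log2 fold change 1.20, SE 0.08, limma adjusted p = 2.17e-11). ITGB5, the vitronectin receptor partner of ITGAV, went the other way, from 2409 ± 218 to 1642 ± 71.9 (SD, n = 3, log2 fold change -0.55, SE 0.08, limma adjusted p = 2.55e-06). ITGB3, which pairs with ITGAV in endothelium and with ITGA2B in platelets, averaged 51.1 ± 15 and 48.1 ± 8.55, with an interval of its log2 change from -0.67 to 0.55.

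ITGB4, the hemidesmosomal β chain on chromosome 17 (75721459 to 75757818), rose while its partner ITGA6 fell. ITGB4 was at 1292, 990 and 1320 in DMSO and 2129, 2052 and 2223 with erlotinib (log2 fold change 0.84, SE 0.09, limma adjusted p = 9.72e-08). ITGB1, on chromosome 10 (32900318 to 32958230, minus strand), gave the most signal per kb of all integrin genes, at 22951, 26475 and 22710 in DMSO and 19985, 20362 and 20664 with erlotinib before division by length. This fall was small (log2 fold change -0.24, SE 0.07, limma adjusted p = 0.00376), and with total-count scaling it was -0.06 with an adjusted p of 0.438. ITGB2, the common β chain of leukocyte integrins, was measured at 797, 787 and 889 in DMSO and at 1215, 1319 and 1318 with erlotinib, and rose (log2 fold change 0.64, limma adjusted p = 1.15e-06). Its α partners ITGAL, ITGAM, ITGAX and ITGAD had at most 18 reads in any library. ITGB2-AS1, antisense to ITGB2 with 303 shared exonic bases, went from 119, 118 and 137 to 194, 196 and 213. ITGB7, another leukocyte β chain, was barely read, at 2.27, 5.57 and 10.7 in DMSO and 28.6, 14.8 and 12.2 with erlotinib. Its rise (log2 fold change 1.54, SE 0.63, limma adjusted p = 0.0358) lost the threshold without the first DMSO library (adjusted p = 0.118) and without the first (0.188) or second (0.0607) erlotinib library, and was 0.81 with a pseudocount of 10. ZNF740 shares 1881 exonic bases with ITGB7 on the opposite strand, and its signal was 2439, 2377 and 2484 in DMSO and 3386, 3408 and 3121 with erlotinib.

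Levels of different genes were compared per kb of the MANE Select transcript. In DMSO the α genes were ordered ITGA3 (3904 ± 467), ITGA6 (1583 ± 63.5), ITGAV (803 ± 89.4), ITGA2 (577 ± 68.0) and ITGA5 (275 ± 9.37), and with erlotinib ITGA3 (1918 ± 36.0), ITGAV (1114 ± 13.0), ITGA6 (402 ± 13.3), ITGA2 (259 ± 14.7) and ITGA5 (194 ± 9.30), in signal per kb (SD, n = 3). ITGAV thus passed ITGA6 to second place, and all libraries showed this change of order. Among the β genes ITGB1 led in both groups, at 6438 ± 564 and 5445 ± 91.0. In DMSO ITGB5 came next (543 ± 49.0), followed by ITGB6 (376 ± 36.4). With erlotinib ITGB6 came next (864 ± 56.7), then ITGB2 (457 ± 21.2), while ITGB5 (370 ± 16.2) and ITGB4 (362 ± 14.5) did not differ beyond their spread. Summed per kb, all 18 α genes gave 7276 ± 314 in DMSO and 3989 ± 70.5 with erlotinib, a change of -45.2% (-37.9% with total-count scaling). The 8 β genes changed by -3.41%, a direction that turned to 9.36% with total-count scaling. As a share of the α signal per kb, which no library scaling alters, ITGA6 went from 21.8% ± 1.12 to 10.1% ± 0.208 and ITGAV from 11.1% ± 1.68 to 27.9% ± 0.285. As a share of the β signal per kb, ITGB1 went from 81.7% ± 1.59 to 71.6% ± 0.359, ITGB6 from 4.78% ± 0.142 to 11.4% ± 0.505 and ITGB8 from 0.0762% ± 0.0268 to 1.17% ± 0.0679.

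Among the laminin genes, LAMB2 showed the largest rise and LAMC3 the largest fall, and of the chains of the epithelial anchoring laminin LAMB3 fell by a smaller amount while LAMA3 did not pass the test. Upstream sequence is shown for LAMA3 and LAMB3, partner chains that were the 2 tested members with letters of the AP-1 motif before at least 1 annotated start, and for LAMB2, which rose most. Windows of 250 bases before an annotated start were taken from RefSeq (GRCh38.p14) and matched 19 of the 26 tested genes. Both strands were searched for TGANTCA (AP-1), GGAATG (TEAD), TGTTTAC (forkhead) and CCGGAA (ETS), and these motifs do not contain one another. The stretch outside annotated exons is printed 5′ to 3′ on the gene's strand, with motif letters in capitals.
LAMA3, chr18:23872770-23873019, plus strand, start of the shorter transcript: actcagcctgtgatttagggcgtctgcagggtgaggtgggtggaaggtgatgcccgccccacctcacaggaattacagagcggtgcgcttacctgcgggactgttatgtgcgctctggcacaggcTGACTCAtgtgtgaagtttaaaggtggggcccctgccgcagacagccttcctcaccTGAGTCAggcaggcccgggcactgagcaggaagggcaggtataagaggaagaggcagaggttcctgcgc
LAMB3, chr1:209651395-209651624, minus strand: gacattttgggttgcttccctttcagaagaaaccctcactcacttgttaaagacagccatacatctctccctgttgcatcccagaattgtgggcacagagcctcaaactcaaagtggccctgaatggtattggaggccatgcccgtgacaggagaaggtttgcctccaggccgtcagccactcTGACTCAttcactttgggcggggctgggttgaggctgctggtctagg
LAMB2, chr3:49133119-49133300, minus strand: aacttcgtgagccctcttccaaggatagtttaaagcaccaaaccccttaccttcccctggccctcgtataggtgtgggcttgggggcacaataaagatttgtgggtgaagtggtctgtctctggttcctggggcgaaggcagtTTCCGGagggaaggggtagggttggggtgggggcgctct

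The LAMA3 window holds AP-1 letters that begin 125 and 69 bases before the start, and the printed LAMB3 window holds them 67 bases before a start that lies 1051 bases from that of the MANE Select transcript. The other 2 LAMB3 windows, at the MANE Select start and 96 bases from it, hold no AP-1 letters. AP-1 letters were present in 6.57% of the 35116 windows of that length in the RefSeq table. The LAMB2 window holds the ETS letters, on the other strand, 107 bases before the start. ETS letters were also in at least 1 window of each of ITGA6, ITGB1, ITGB5 and LAMA5, and in 14.5% of all windows. The ITGB5 match lies before a start 14053 bases from that of the MANE Select transcript. A gene can have several windows, so these shares of single windows are not shares of genes. TEAD letters were in at least 1 window of each of ITGA5, ITGA10, ITGB1 and LAMA2 (11.9% of all windows), and forkhead letters were in no window of a tested member (2.98% of all). A match describes the letters of a window and is not a measured binding site.

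LAMB2 and LAMB1 are β chains of laminins found in most basement membranes. LAMB2, on chromosome 3 (49121114 to 49133050, minus strand), was at 699, 652 and 833 in DMSO and 2272, 2446 and 2293 with erlotinib. The groups were 3.21-fold apart in the means (log2 fold change 1.69, SE 0.09, limma adjusted p = 7.92e-13). LAMB1 averaged 5532 ± 231 and 7604 ± 250 (SD, n = 3, log2 fold change 0.46, SE 0.06, limma adjusted p = 1.64e-06), while DLD, a metabolic gene that shares 300 exonic bases with it on the opposite strand, went from 2768, 3190 and 2924 to 1787, 1757 and 1560. LAMA5, the α chain of the common epithelial laminins with LAMB1 or LAMB2 and LAMC1, averaged 8871 ± 1239 and 10821 ± 318, a small rise (log2 fold change 0.30, SE 0.08, limma adjusted p = 0.00271). It was 0.18 without the second DMSO library and 0.48 with total-count scaling. ADRM1, a proteasome gene with 244 exonic bases in common with LAMA5 on the opposite strand, went from 2353, 2060 and 2649 to 1732, 1744 and 1831. LAMC1, the γ chain of those trimers, averaged 7941 ± 326 and 7345 ± 441 and did not pass the test, with an interval of its log2 change from -0.25 to 0.02.

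LAMB3 (chromosome 1, 209614870 to 209652425, minus strand) was at 11811, 10610 and 11866 in DMSO and 8653, 9326 and 9016 with erlotinib. It fell without overlap between the groups (log2 fold change -0.34, SE 0.07, limma adjusted p = 8.39e-05), by less with total-count scaling (-0.16, limma adjusted p = 0.0245). LAMA3 (chromosome 18, 23689453 to 23955066), its α partner, was at 2326, 2441 and 2325 in DMSO and 2538, 2380 and 2774 with erlotinib. The groups of LAMA3 overlapped (log2 fold change 0.11, 95% interval -0.04 to 0.27, limma adjusted p = 0.168), and with total-count scaling it rose by 0.29 with an adjusted p of 0.00179. LAMC3, a γ chain with few reads, was at 79.4, 84.5 and 96.3 in DMSO and 48.0, 42.6 and 25.3 with erlotinib, and fell (log2 fold change -1.19, SE 0.28, limma adjusted p = 0.000702). LAMA2, the muscle laminin α chain, averaged 54.2 ± 7.04 and 28.8 ± 9.99 (log2 fold change -0.94, SE 0.33, limma adjusted p = 0.0149), and without the first erlotinib library its change was -0.66 with an adjusted p of 0.0889.

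**Figure D3:**
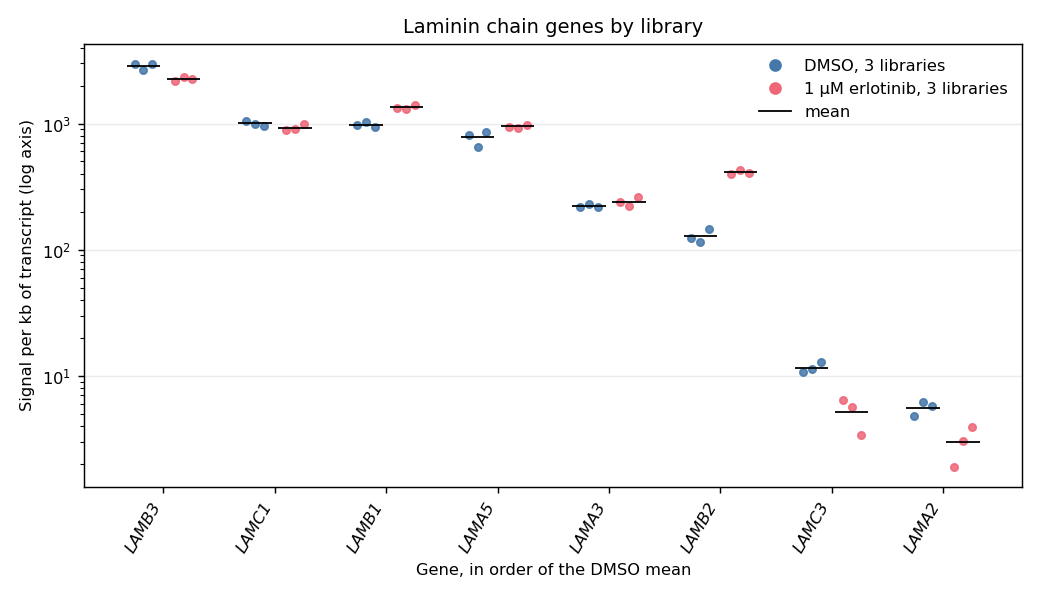
Signal per kb of transcript (log axis) of 8 tested laminin genes in each of the 3 DMSO and 3 erlotinib libraries (points) with the group means (lines), in order of the DMSO mean. LAMB3 is the highest of these in both groups, and LAMB2 shows the clearest rise.

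Per kb, LAMB3 stood at 2847 ± 177 in DMSO, above LAMC1 (1001.5 ± 41.2), LAMB1 (979 ± 41.0), LAMA5 (776 ± 108), LAMA3 (222 ± 6.26) and LAMB2 (128 ± 16.5). LAMC1 and LAMB1 did not differ beyond their spread in DMSO. With erlotinib LAMB3 (2242 ± 84.0) was still above these genes, LAMB1 (1346 ± 44.2) stood above LAMA5 (947 ± 27.8) and LAMC1 (926 ± 55.6), which did not differ beyond their spread, and LAMB2 (411 ± 16.7) was above LAMA3 (241 ± 18.6). The per-kb level of LAMA3 depends on the transcript. Divided by the length of its shorter transcript, which starts 184 kb inside the gene and has 38 exons, against 75 in the MANE Select transcript, LAMA3 was at 421 ± 11.9 in DMSO and 456 ± 35.3 with erlotinib. As a share of all laminin signal per kb, LAMB3 went from 31.6% ± 1.01 to 26.4% ± 0.879, LAMB1 from 10.9% ± 0.795 to 15.9% ± 0.374 and LAMB2 from 1.42% ± 0.157 to 4.84% ± 0.236. The summed signal per kb of the 12 laminin genes changed by -5.69%, and by 6.81% with total-count scaling.

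The remaining 12 members were below the filter. ITGA8, of mesenchyme, and LAMA1, of the early embryo, had 0 reads in all libraries. A limit of 3 reads, taken here for a count of 0 and not an absolute maximum, would be a signal of 2.77 to 3.40 depending on the library (counting error only). The other 10 (ITGA2B, ITGA4, ITGA9, ITGA11, ITGAD, ITGAL, ITGAM, ITGAX, LAMA4 and LAMB4) had at most 18 reads in any library. Among these ITGA4 had 8, 0 and 0 reads in DMSO and 11, 9 and 16 with erlotinib, ITGAM had 6, 6 and 2 against 13, 18 and 10, and ITGA2B had 0, 2 and 2 against 11, 9 and 6. These 3 were named after their values were seen, and had more unscaled reads in each erlotinib library than in any DMSO library, although in signal ITGA4 overlapped between the groups (9.08 in the first DMSO library and 8.91 in the second erlotinib library). With no filter on low values limma called ITGA2B (log2 fold change 2.12, adjusted p = 0.00847), ITGA4 (2.48, adjusted p = 0.0126) and ITGAX (1.71, adjusted p = 0.0484) higher, and ITGAM was at 1.33 with an adjusted p of 0.0590. ITGA4 shares 2813 exonic bases with CERKL on the opposite strand, and CERKL went from 19.3, 11.1 and 20.3 to 59.1, 65.3 and 42.1 in signal. The part of shared reads in the ITGA4 values was not tested.

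The ratio of chains was followed in 11 pairs, as it depends little on how libraries are scaled. A pseudocount of 1 was added to each signal first, which alters ratios with a low gene such as ITGB8. All are partners known to assemble except LAMA5 and LAMA3, which are alternative α chains. In 10 of the 11 pairs the DMSO and erlotinib libraries did not overlap, which in an exact two-sided permutation test of 3 against 3 libraries gives p = 0.1, the smallest it can give (0.11 after Benjamini-Hochberg adjustment over the 11 pairs), so no pair can pass 0.05 with this test. Of all single genes tested 73.6% did not overlap, and no share over other gene pairs was computed, so this count is descriptive. ITGA6 over ITGB4 had a ratio per kb of 7.43, 9.57 and 6.75 in DMSO and 1.07, 1.19 and 1.07 with erlotinib. The ratio of ITGA6 to its hemidesmosomal partner was thus lower with erlotinib (log2 change -2.82). The level of this ratio rests on the transcript lengths used and on how reads over short exons were counted. ITGAV over ITGB8 went from 190, 139 and 96.8 to 12.0, 12.3 and 13.1, a log2 change of -3.45 (-3.23 with a pseudocount of 10). ITGAV over ITGB6 went from 2.04, 2.17 and 2.19 to 1.36, 1.31 and 1.21, a log2 change of -0.72. ITGAV over ITGB5 moved the opposite way, from 1.24, 1.75 and 1.48 to 3.03, 2.90 and 3.12. Against ITGB1, the ratio was lower in all erlotinib libraries than in all DMSO libraries for ITGA6 (log2 change -1.74), ITGA2 (-0.91), ITGA3 (-0.78) and ITGA5 (-0.27), and higher for ITGAV (0.72). ITGA3 over ITGB1 was between 0.478 and 0.698 in DMSO and between 0.351 and 0.353 with erlotinib. Among the laminins, LAMA3 over LAMB3 was higher with erlotinib without overlap (log2 change 0.46), and LAMA5 over LAMA3 overlapped between the groups (log2 change 0.18, exact permutation p = 0.3).

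**Figure D4:**
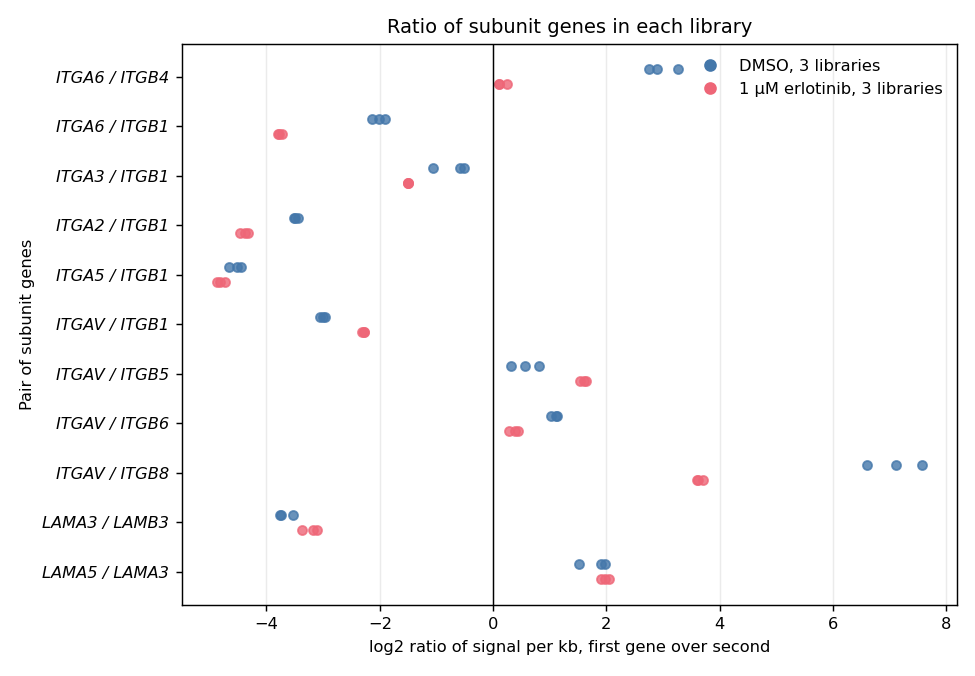
The log2 ratio of signal per kb between subunit genes in each DMSO and erlotinib library (points) for 11 pairs. ITGA6 over ITGB4 has a mean of 2.97 in DMSO and 0.15 with erlotinib, ITGAV over ITGB8 differs by -3.45, and LAMA5 over LAMA3, a ratio of alternative α chains, overlaps between the groups.

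Genes that work with these receptors and matrix proteins were taken from lists, and each list is given by its counts beside the 35.4% lower and 35.3% higher of all genes. Counts with total-count scaling stand beside 3955 lower and 6156 higher of the 14215 genes tested. Of 32 adaptors and kinases that bind integrin tails or the actin linked to them, 28 were tested, and 14 were lower, 6 higher and 8 neither (median log2 fold change -0.24). With total-count scaling 12 were lower and 9 higher, with a median of -0.06. FERMT1, the epithelial kindlin that activates integrins, fell (-1.22, SE 0.07, limma adjusted p = 3.4e-12), as did PARVB, which binds ILK (-0.79), and ITGB1BP1, which binds the tail of ITGB1 (-0.79). NEDD9, a docking protein of focal adhesions, rose from 98.7 ± 20.8 to 722 ± 86.7 (SD, n = 3, log2 fold change 2.87, limma adjusted p = 8.8e-13), TNS3, a tensin, from 6065 ± 109 to 15971 ± 792 (1.40), and TNS2 from 41.6 ± 12.2 to 83.4 ± 21.2 (0.99). PXN (paxillin, -0.72) and VCL (vinculin, -0.46, and -0.28 with total-count scaling) fell, and so did PTK2 (focal adhesion kinase, -0.28), whose change with total-count scaling was -0.10 with an adjusted p of 0.254. TLN1 (talin, 0.15) and ILK (0.12) did not pass the test, and with total-count scaling both did (0.33, adjusted p = 0.000436, and 0.30, adjusted p = 0.0122, limma). TLN1 also passed with TMM factors (adjusted p = 0.0454), with edgeR (0.0474) and without the first DMSO library (0.0337). These 5 were picked as the best known members after their values were seen.

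Of the 10 hemidesmosome proteins and membrane partners of integrins, 5 were higher, 1 lower and 4 neither (median 0.46). With total-count scaling 7 were higher and 1 lower, beside 6156 higher and 3955 lower of all 14215 genes tested. COL17A1, the transmembrane collagen of hemidesmosomes, rose from 710 ± 46.2 to 2042 ± 117 (log2 fold change 1.52, limma adjusted p = 1.2e-12), the tetraspanin TSPAN8 from 34.5 ± 8.61 to 442 ± 27.6 (3.67) and the tetraspanin CD82 from 34.9 ± 6.16 to 121 ± 14.6 (1.77). PLEC, the plectin that links ITGB4 to keratins, fell from 41364 ± 6266 to 28925 ± 1538 (-0.51, and -0.33 with total-count scaling). CD151, the tetraspanin bound to laminin-binding integrins, was at 5219 ± 382 and 5238 ± 49.7 and did not pass the test, and with total-count scaling it was higher by 0.19 (limma adjusted p = 0.0162). It was named after its values were seen.

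The other basement membrane genes were mostly higher, with 12 higher, 3 lower and 4 neither of 19 tested from a list of 21 (median 0.63, and 0.81 with total-count scaling). FREM1 and FRAS1, which form a complex under epithelia in the embryo, rose by 4.24 (SE 0.38) and 2.32 (SE 0.14) on the log2 scale. In signal FREM1 went from 7.80 ± 3.87 in DMSO to 153 ± 27.4 with erlotinib. FREM1 reached the filter on mean signal only through its erlotinib libraries, so its place among the 12 depends on its rise. COL18A1, a basement membrane collagen, rose by 1.19 (SE 0.08). COL4A1 and COL4A2, the pair of chains of the common collagen IV network, fell by 0.79 and 0.71 on the log2 scale, and COL4A6 fell by 0.86, a call lost without the third DMSO library (adjusted p = 0.0747). AGRN, the most abundant gene of this list and a proteoglycan that binds laminin, rose by 0.49. Of 9 receptors for laminin other than integrins, 5 were lower and 3 higher (median -0.16). With total-count scaling 2 were lower and 3 higher, and the median turned to 0.02. At that scaling 3955 of the 14215 genes tested were lower and 6156 higher. BCAM, a receptor of LAMA5, rose from 406 ± 47.0 to 1434 ± 28.3 (log2 fold change 1.83, limma adjusted p = 7.9e-13), and the syndecans SDC3 (1.44) and SDC4 (0.63) rose as well. RPSA (-0.45, limma adjusted p = 0.0276), which has many processed pseudogenes and is uncertain in such counts, CD44 (-0.33) and SDC1 (-0.16, limma adjusted p = 0.0450) passed the threshold as lower. SDC2, a gene of low signal, fell most (-2.71, limma adjusted p = 0.000864, and -1.48 with a pseudocount of 10). DAG1 was lower by less (-0.16, limma adjusted p = 0.0295, and 0.02 with total-count scaling). With total-count scaling RPSA was at -0.27 with an adjusted p of 0.171, CD44 at -0.15 and SDC1 at 0.02, and SDC1, whose groups overlapped, also missed the threshold with TMM factors, edgeR, DESeq2 and no filter. RPSA lost its call with no filter (adjusted p = 0.0517) and without any single library other than the second of each group, and SDC1 without any single library other than the second DMSO library.

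Of 26 ligands of integrins other than laminins, 20 were tested, and 12 were higher, 4 lower and 4 neither (median 1.06). With total-count scaling 14 were higher and 4 lower, beside 6156 higher and 3955 lower of all 14215 genes tested. A gene can reach the filter of 10 through its erlotinib libraries alone, so this count is not independent of the rises. The 12 include genes of low signal whose size of change depends on the pseudocount. FGA was at 4.67 (2.83 with a pseudocount of 10) and VWF at 2.75 (1.44). The list included SPP1 (osteopontin), which rose from 22.6 ± 12.5 to 182 ± 22.3 (log2 fold change 3.08, limma adjusted p = 2e-08), FBN1 (fibrillin), from 12.3 ± 4.30 to 99.3 ± 11.8 (2.97), and FGB (fibrinogen β), from 173 ± 37.0 to 1108 ± 50.9 (2.69). TNC (tenascin C), a ligand of αv and α9 integrins, fell from 15802 ± 481 to 3784 ± 338 (-2.07, limma adjusted p = 5.5e-16), CTGF from 246 ± 20.9 to 86.5 ± 8.27, and ICAM3 by 0.56 on the log2 scale. CYR61, the most abundant gene of this list, was lower too (-0.41, limma adjusted p = 2.02e-05, and -0.23 with total-count scaling). The summed signal of the list was 146110 in DMSO and 139670 with erlotinib, so its median does not describe the total. FN1 (fibronectin) also rose, from 1693 ± 31.6 to 5153 ± 450.05, as did EDIL3, a secreted RGD protein, from 2223 ± 153 to 8387 ± 280 (1.92), and both are named after their values were seen. Of 9 genes listed for latent TGF-β, 7 were tested, and 5 were higher, 1 lower and 1 neither (median 0.90). Not every gene of this list encodes a ligand of the ITGB6 or ITGB8 integrins. TGFB3 rose from 33.8 ± 7.16 to 124 ± 20.3 (log2 fold change 1.85), and the latent TGF-β binding proteins LTBP4 (1.51) and LTBP2 (1.14) rose as well, while TGFB1 fell from 1592 ± 205 to 1046 ± 59.2 (-0.60, limma adjusted p = 8.1e-06).

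**Figure D5:**
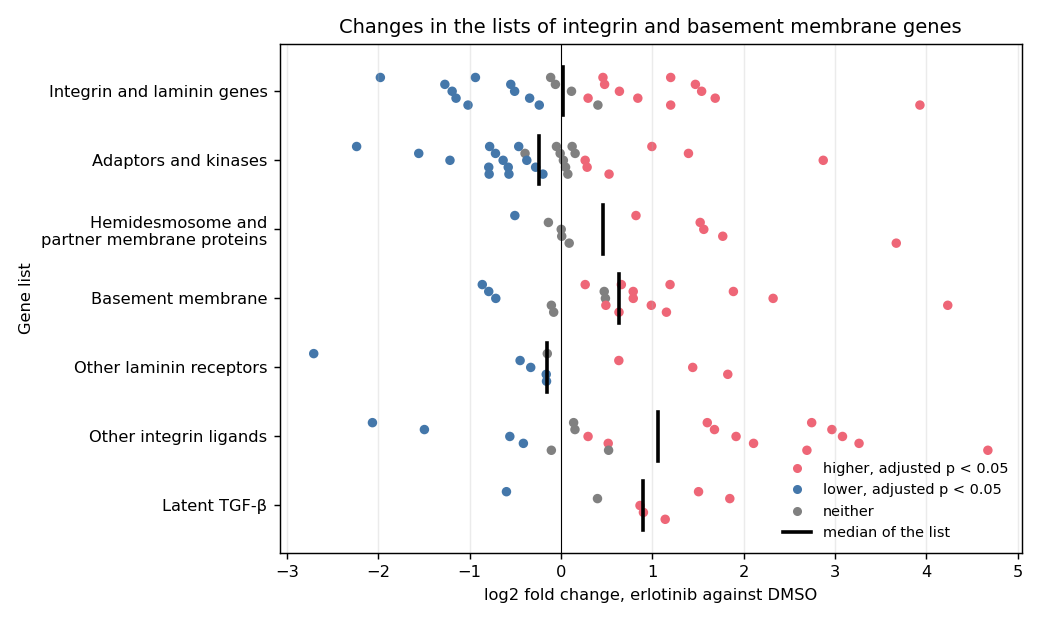
The log2 fold change of single tested genes (points), of which 25 are integrin and laminin genes and the rest belong to 6 lists of their partners, with the list median (line). The lists of basement membrane genes, other integrin ligands and latent TGF-β have medians of 0.63, 1.06 and 0.90, and the integrin and laminin genes one of 0.03 over all 26 tested.

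The labelled cell type was checked against markers. All 8 epithelial markers were above the filter, led by the keratin KRT7 at 123690 ± 7643 in DMSO and 79897 ± 2922 with erlotinib. The summed epithelial signal was 292180 and 222610, and 4 of the 8 markers, all keratins, were lower. CLDN4 (log2 fold change 0.93) and ESRP1 (0.25, and 0.43 with total-count scaling) were higher, and EPCAM, at 9852 and 9485, and CDH1 were neither. CDH1 (0.14, limma adjusted p = 0.0531) was called higher with total-count scaling (0.32, adjusted p = 9.02e-05), TMM factors (0.0250), edgeR (0.0230), DESeq2 (0.0163), a pseudocount of 0.1 (0.0463) and without the second DMSO library (0.00348). Because ITGB2, ITGB7 and ITGAE are known from leukocytes, leukocyte markers were read too. Of these, 4 of 14 passed the filter, led by LCP1 at 9801 and 5909, which epithelial tumour cells also express. The defining genes MS4A1 and FCGR3A were at 0 in all libraries, PTPRC averaged 1.78 and 4.75, and the summed leukocyte signal, most of it from LCP1, was 12965 and 9488. LCP1 and CORO1A were lower, CD68 was higher (log2 fold change 0.23, limma adjusted p = 0.00762, and 0.0514 without the second erlotinib library) and CSF1R was neither (adjusted p = 0.0550, and 0.0490 without the second DMSO or 0.0318 without the second erlotinib library). Of the platelet markers PF4, PPBP, GP9 and GP6 were at 0, and the sum was 70.6 and 106, nearly all from GP1BA. The fibroblast sum was 86.0 and 233, led by COL1A1 (77.7 and 216), with COL1A2 and COL3A1 averaging less than 2 and THY1 at 0. The endothelial sum was 27.7 and 36.1, led by PECAM1, with EMCN at 0. In bulk libraries fewer cells of a type and less RNA per cell cannot be told apart. The 7 readouts of EGFR signalling (DUSP6, SPRY4, ETV4, ETV5, EGR1, FOSL1 and CCND1) all fell with erlotinib, beside 35.4% of all genes. Their median change was -3.95 on the log2 scale, and DUSP6 went from 1391 ± 25.3 to 68.2 ± 5.35. The paper already reports DUSP6, EGR1, FOSL1 and CCND1 as suppressed by erlotinib in these libraries, so their fall is not an independent check.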

How the data were processed

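The authors mapped reads to GRCh38 with Bowtie2 2.3.4 and counted them per gene with featureCounts 1.6.3, per the labels, and DESeq2 1.18.1 is also named there. The deposited signal values are whole reads divided by 1 size factor per library (0.882 to 1.08), since 100% of the values became whole within 0.01 when divided by a library's step. Bowtie2 does not split reads over introns, so short exons can count for less. Libraries are called the first, the second or the third of their group by the order of their columns, which for erlotinib is not matched to the labels' sample numbers. All 6 columns were used, and the 475 rows with no symbol stayed in the fit. Replicates differed by more than sampling noise (chi-square of 4.05 to 22.9 per degree of freedom).

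Members, lists, comparisons and the rule for named genes were chosen with earlier results of these data known. Values in every library were given for members changed by at least 1 log2 unit and for the main partner chains, and of each list the 3 largest rises and falls past the threshold with a mean signal of at least 50. Limits on mean signal apply to the mean over the 6 libraries, so a gene can reach them through 1 group alone. The test was limma 3.58.1 (R 4.3.3) with a mean-variance trend on log2(signal + 1), which understates changes of low genes, over the 14215 genes whose mean signal reached 10, two-sided, Benjamini-Hochberg adjusted, with a threshold of 0.05. In data simulated from these libraries with 14215 genes, 87 of 100 genes changed by 1 log2 unit and 97 of 100 changed by 2 were recovered, and 4.66% of calls were false. Far fewer genes were changed there than the 70.7% called in the real data, and the scaling was taken as known. These rates may therefore not hold for the real comparison. The alternatives were edgeR 4.0.16 and DESeq2 1.42.0 on the recovered reads, TMM and total-count scaling, pseudocounts of 0.1 and 10, other filters, a threshold of 0.01 and each library left out. Lengths, exons and overlaps came from GENCODE release 44, and gene positions and sequences from RefSeq (GRCh38.p14). Protein sequences were not used here. A single gene is not reported here, and it was left out of single values, pairs and figures but not of the counts, medians and sums of lists.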

Additional observations from a re-analysis of the deposited data

How the results depend on the processing

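Of 25 tested members, 18 kept their direction and their side of the threshold under all 15 alternatives (21 of the 25 were tested where a mean signal of 50 was required), and all 25 did with TMM factors, edgeR and DESeq2. The exceptions were ITGA10, ITGB1, ITGB3, ITGB7, LAMA2, LAMA3 and LAMC1. Reversed values were those of genes that did not pass the test: ITGA10 at -0.37 without the first DMSO library, ITGB3 at 0.11 with total-count scaling, 0.15 without the first DMSO library and 0.09 without the third erlotinib library, and LAMC1 at 0.066 with total-count scaling. Calls were lost for ITGB1 with total-count scaling (-0.06, limma adjusted p = 0.438), for ITGB7 and LAMA2 when single libraries were left out and at a threshold of 0.01, and gained for LAMA3 with total-count scaling (0.29), and the cause was not tested. Over all leave-one-out fits the log2 change of ITGA10 lay between -0.37 and 0.81 and that of ITGB3 between -0.27 and 0.15. With each library left out, 10 to 11 members were lower and 10 to 11 higher, and 4702 to 5096 of all genes were lower and 4585 to 5094 higher. Total-count scaling gave 3955 genes lower and 6156 higher, in place of 5031 and 5012. With no filter, 14 members were higher, among them ITGA2B, ITGA4 and ITGAX, which had at most 16 reads in a library. No paired analysis was possible because the column numbers of the erlotinib libraries match no replicate number in their labels.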
